A study of Mus musculus with 4 samples.

Results

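The endoplasmic reticulum chaperone genes described here are 10 genes of protein folding and quality control in the secretory pathway, Hspa5, Hsp90b1, Calr, Pdia4, Pdia6, Creld2, Sdf2l1, Dnajb9, Herpud1 and Xbp1. They were named in advance by symbol, with earlier results of these data known. They were found on the array through the RefSeq accession of each probe. All 10 had at least 1 probe, with 12 probes in all, and all 10 were tested among 20725 genes and unnamed features. Every one of the 12 probes was well above background on all 4 arrays, so no member entered through 1 group alone.

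The samples were cardiomyocytes grown from CGR8, a mouse embryonic stem cell line, in low-glucose medium with 2% fetal bovine serum. The transfection, with the agent Pepmute, lasted 48 hours and used either an interfering RNA that targets Erbb4 (siErbB4, 2 samples) or a control RNA of scrambled sequence (siScr, 2 samples). Every sample had an Agilent array to itself, in 1 colour. All of the groups therefore share the cell line, the serum level and the transfection itself. Incubations of 6 and 24 hours were also the same for every sample. The labels name no cell sorting and no age of the cultures, and separate cultures for the replicates are stated nowhere in them, so the p-values cover the spread between these 4 samples alone, which may be technical.

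In the endoplasmic reticulum, newly made secretory and membrane proteins are folded by the Hsp70 protein BiP (Hspa5), the Hsp90 protein GRP94 (Hsp90b1) and the calcium-binding lectin calreticulin (Calr), while protein disulfide isomerases such as Pdia4 and Pdia6 form and rearrange their disulfide bonds. When unfolded proteins build up, the membrane sensors IRE1, PERK and ATF6 start the unfolded protein response, which raises transcription of these chaperones. IRE1 acts by splicing the messenger RNA of Xbp1, and cleaved ATF6 binds, together with the factor NF-Y, a promoter sequence called the endoplasmic reticulum stress response element. In the heart the same compartment, as sarcoplasmic reticulum, stores the calcium that drives contraction, and calreticulin is needed for the embryonic heart to form.

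The promoters of the members are shown first. The endoplasmic reticulum stress response element belongs to the response that raises these chaperones, as described above. The shares of this element and of its relatives among members chosen as such genes are therefore not independent findings. RefSeq promoters of build GRCm38.p6, running from 250 bases before to 50 bases after each transcript start, were at hand for all 10 members. The element was searched on both strands as CCAAT followed, after 9 bases of any kind, by CCACG. It was found in 5 of the 10 member promoters, 6 times in all, and in 39 of 32851 promoters of the same length over all genes, or 0.119%. The related type II element, searched as ATTGG followed, after 1 base of any kind, by CCACG, was found in 1 member promoter and in 12 promoters over all genes, or 0.0365%. The XBP1-type element TGACGTGG was in 0 of the member promoters and in 0.676% of all promoters. Each match is printed 5′ to 3′ on the strand of its gene with 5 bases on either side, and capitals mark the letters that the element fixes.
Hspa5, chr2:34772020-34772048, plus strand: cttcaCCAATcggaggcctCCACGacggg
Hsp90b1, chr10:86705633-86705661, minus strand: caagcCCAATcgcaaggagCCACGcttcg
Hsp90b1, chr10:86705528-86705556, minus strand: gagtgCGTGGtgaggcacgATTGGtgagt
Calr, chr8:84847070-84847098, minus strand: caacgCGTGGtcgaccctcATTGGcccat
Pdia6, chr12:17266486-17266514, plus strand: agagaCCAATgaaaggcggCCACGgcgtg
Creld2, chr15:88819515-88819543, plus strand: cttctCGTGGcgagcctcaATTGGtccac
Herpud1, chr8:94386372-94386392, plus strand: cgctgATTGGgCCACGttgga
The second Hsp90b1 window and those of Calr and Creld2 hold the element on the strand opposite to the gene, and the last line is the type II element of Herpud1. The matches lay between positions -212 and -42 from the transcript start, the nearest being that of Herpud1 and the farthest the first of Hsp90b1. A match describes letters only and is not a measured binding site.

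**Figure D1:**
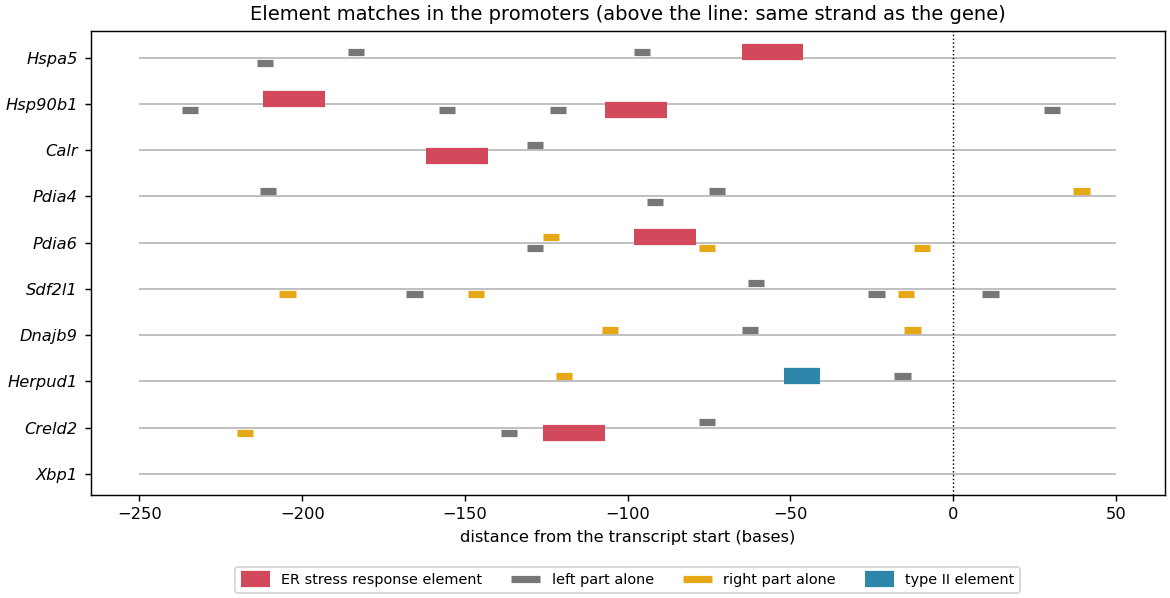
Positions of the searched elements in the 10 member promoters, in bases from the transcript start (dotted line); marks above a line are on the strand of the gene and marks below it on the other, and small marks are the left (CCAAT) or right (CCACG) part found outside a whole element. Whole elements are seen in 6 promoters, those of Hspa5, Hsp90b1, Calr, Pdia6, Creld2 and Herpud1, and the Xbp1 promoter shows none of the searched letters.

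The other 4 members, Pdia4, Sdf2l1, Dnajb9 and Xbp1, had no whole element in this window, which says nothing about sites elsewhere. Of their promoters that of Pdia4 is printed beside that of Calr, because these are the 2 members with the widest spread over the arrays and 1 of them has the whole element. Capitals mark CCAAT and CCACG on either strand, which 37.4% and 32.8% of all promoters hold.
Calr, chr8:84846882-84847181, minus strand: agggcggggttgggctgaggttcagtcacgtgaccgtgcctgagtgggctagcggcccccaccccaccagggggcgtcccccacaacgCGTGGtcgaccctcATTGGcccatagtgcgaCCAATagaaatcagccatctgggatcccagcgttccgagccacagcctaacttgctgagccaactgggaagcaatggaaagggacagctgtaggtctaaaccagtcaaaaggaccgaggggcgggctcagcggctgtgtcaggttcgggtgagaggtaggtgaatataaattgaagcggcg
Pdia4, chr6:47813463-47813762, minus strand: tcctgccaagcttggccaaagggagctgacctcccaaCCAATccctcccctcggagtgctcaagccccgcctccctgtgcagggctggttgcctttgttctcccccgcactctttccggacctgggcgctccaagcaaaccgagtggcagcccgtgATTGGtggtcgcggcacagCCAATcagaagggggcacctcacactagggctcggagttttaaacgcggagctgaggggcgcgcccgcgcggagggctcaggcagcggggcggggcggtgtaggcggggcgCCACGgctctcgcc
The Pdia4 promoter held 3 copies of the left part and 1 of the right part, which lay after the transcript start.

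Some facts of the whole series bear on the values below. The 75th percentile of the processed signal, to which each array was scaled, lay between 878 and 989. Probes well above background made up 64.8% to 68.5% of each array, and precision is limited by having 4 arrays. Erbb4 itself had 1 named probe, with processed signals of 9.02 and 11.9 on the siScr arrays and 2.83 and 15.0 on the siErbB4 arrays. Only siErbB4 replicate 2 had it well above background, so the target of the knockdown does not check the labels. For the same reason a lower level of Erbb4 RNA in the siErbB4 samples is not shown here. Some labels go against the titles used for grouping: the scrambled RNA is named in the descriptions of both siErbB4 samples, and ErbB5 in the source name of siErbB4 replicate 2. All 15 cardiomyocyte markers listed were well above background on all 4 arrays.

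Levels are given on the log2 scale with each array's 75th percentile at 0, and levels of different probes cannot be set against each other on an array. With siScr as the control, no member passed the test in either comparison. Most of them were nearly flat. The span between the highest and the lowest array was under 0.30 at 7 of 10 members, against 33.4% of all features, and over 0.58 at Calr, Pdia4 and Sdf2l1, against 30.9% of all features. At those 3 genes the array that stood apart was siScr replicate 1. The median span was 0.19 over the members and 0.40 over all features. Among the lists compared below it was 0.20 over cytosolic and mitochondrial chaperones and 0.26 over degradation genes. It was 0.32 over translocation and transport genes, 0.35 over other folding factors and 0.53 over sensors and factors of the response. A narrow span was therefore not particular to the members.

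Hspa5, the gene of BiP and the usual marker of the unfolded protein response, read 5.10 and 5.15 on siScr replicates 1 and 2 and 5.23 and 5.12 on siErbB4 replicates 1 and 2. The groups overlapped, with means of 5.12 ± 0.035 and 5.17 ± 0.073 (SD, n = 2 each). Subtracting siScr from siErbB4 gave a log2 difference of 0.053 by limma (standard error, SE, 0.13; 95% interval -0.31 to 0.42).

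Hsp90b1, which encodes GRP94, a chaperone of integrins, Toll-like receptors and insulin-like growth factors, read 4.38 and 4.24 on the siScr arrays and 4.13 and 4.31 on the siErbB4 arrays. The siErbB4 arrays held both the lowest and the second highest value. Its log2 difference was -0.088 (SE 0.15, 95% interval -0.50 to 0.32).

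Calr read 4.28 and 3.61 on the siScr arrays and 3.66 and 3.56 on the siErbB4 arrays, or processed signals of 19163, 10726, 11892 and 11023 in the same order. siScr replicate 1 stood 0.67 above the mean of the other 3 arrays, and those 3 lay close together, with siScr replicate 2 between the siErbB4 arrays. The log2 difference was -0.34 (SE 0.27, 95% interval -1.08 to 0.40), and it was -0.0051 without siScr replicate 1.

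Among the oxidoreductases, Pdia4, also known as ERp72, showed the same arrangement. It read 0.81 and 0.0078 on the siScr arrays and -0.10 and -0.11 on the siErbB4 arrays, and siScr replicate 1 stood 0.87 above the mean of the others. The groups did not overlap, since siScr replicate 2 lay slightly above both siErbB4 arrays. Its log2 difference of -0.51 was the largest in size among the members (SE 0.31, 95% interval -1.36 to 0.34), and it was -0.11 without siScr replicate 1.

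Pdia6, also known as P5, which binds BiP clients and can act on the sensor IRE1, had 2 probes of the same accession that behaved differently. The brighter one read 4.88 and 4.78 on the siScr arrays and 4.89 and 4.86 on the siErbB4 arrays, so that siErbB4 lay 0.042 above siScr (SE 0.13, 95% interval -0.32 to 0.40). The dimmer one read 0.76, 0.42, 0.37 and 0.37 in the same order, highest on siScr replicate 1 like Calr and Pdia4, with a log2 difference of -0.22 (SE 0.17) when every probe was fitted on its own. Where on the transcript each probe lies is not given in the sources used here.

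Creld2, a secreted and endoplasmic reticulum protein with epidermal growth factor-like repeats, was printed 10 times on each array, which shows how well a single level was measured. After outlier-flagged spots were left out, 9 spots remained per array, with means of 2.88, 2.79, 2.82 and 2.82 on siScr replicates 1 and 2 and siErbB4 replicates 1 and 2. The SD among the spots of 1 array was between 0.029 and 0.059, and the span of the 4 array means was 0.093. The spots of siScr replicate 1 ran from 2.81 to 2.97 and those of siScr replicate 2 from 2.75 to 2.84, so these sets overlapped. The log2 difference between the groups was -0.015 (SE 0.13, 95% interval -0.37 to 0.34).

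The co-chaperones Sdf2l1 and Dnajb9 follow, and their values were not tested against each other. Sdf2l1, which encodes a partner of BiP and its J-domain protein ERdj3, read -0.31 and -0.63 on the siScr arrays and -0.91 and -0.79 on the siErbB4 arrays. Both siErbB4 arrays lay below both siScr arrays, with means of -0.47 ± 0.22 and -0.85 ± 0.079 (SD, n = 2 each). The log2 difference was -0.38 (SE 0.17, 95% interval -0.85 to 0.10), -0.59 between the replicates numbered 1 and -0.16 between those numbered 2, and it was -0.22 without siScr replicate 1.

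Dnajb9, which encodes ERdj4, a J-domain protein that directs misfolded proteins to degradation and restrains IRE1, had the narrowest span of all members. Its brighter probe read 1.091 and 1.101 on the siScr arrays and 1.169 and 1.111 on the siErbB4 arrays, so the groups did not overlap over a span of 0.078. The log2 difference was 0.044 (SE 0.13, 95% interval -0.31 to 0.40). The dimmer probe read -3.29, -3.20, -3.23 and -3.09, with overlapping groups and a log2 difference of 0.085 (SE 0.14) in the fit of single probes.

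Herpud1, a membrane protein of the complex that passes misfolded proteins out for degradation, read 3.15 and 3.05 on the siScr arrays and 3.04 and 3.06 on the siErbB4 arrays. The values overlapped, and the log2 difference was -0.05 (SE 0.13, 95% interval -0.41 to 0.31). Xbp1, the transcription factor of the IRE1 branch, read 4.19 and 4.03 on the siScr arrays and 4.33 and 4.07 on the siErbB4 arrays. Its replicates numbered 1 were the 2 higher arrays, the groups overlapped, and the log2 difference was 0.089 (SE 0.16, 95% interval -0.36 to 0.54). Whether its probe reads the spliced or the unspliced message is not given in the sources used here.

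**Figure D2:**
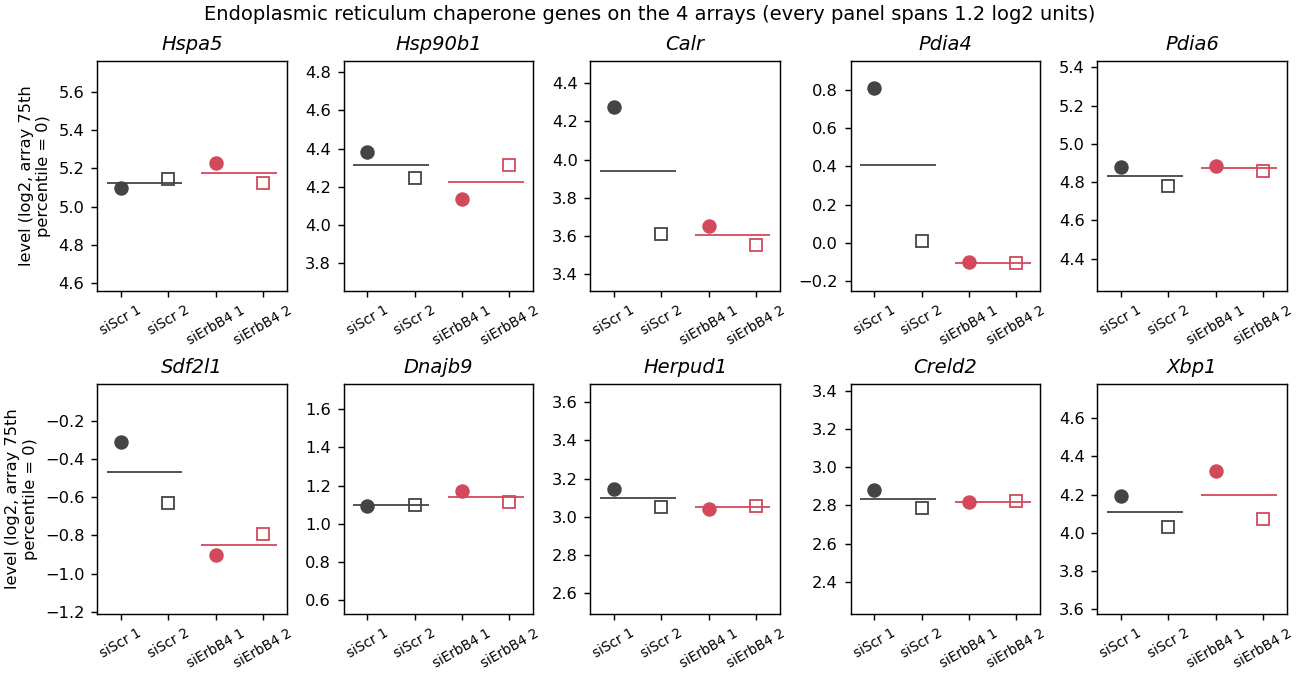
Level of each member on each of the 4 arrays (log2, array 75th percentile at 0), with circles for replicate 1, open squares for replicate 2, grey for siScr, red for siErbB4 and a line at each group's mean of 2 arrays; every panel spans the same 1.2 log2 units. siScr replicate 1 stands apart at Calr (4.28), Pdia4 (0.81) and Sdf2l1 (-0.31), and the 4 arrays of Dnajb9 lie within 0.078.

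Set together, the comparison of siErbB4 with siScr gave 4 members with a positive and 6 with a negative log2 difference, where 52.8% of all features were negative. The median log2 difference was -0.033 over the members and -0.013 over all features tested. With limma and Benjamini-Hochberg adjustment 0 of 10 members and 0% of all features passed the threshold of 0.05, and the adjusted p of every member was 1.00. An unadjusted limma p under 0.05 was found at 0 of 10 members and 1.77% of all features. The groups did not overlap at 3 members, Pdia4 and Sdf2l1 lower and Dnajb9 higher in the siErbB4 arrays, which is near the 29% of all features at which the groups did not overlap. Differences whose size reached 0.58 on the log2 scale numbered 0 among the 10 members, beside 3.31% of all features, and 1.47% of all features were at -0.58 or lower. A p that misses the threshold does not show equal levels: for the 7 members other than Calr, Pdia4 and Sdf2l1 the 95% intervals lay within -0.50 and 0.54. Without siScr replicate 1 the members' median was 0.012, with 5 members on either side.

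The replicate numbers, which come from the sample titles, were compared in the same way, and this comparison uses the same 4 arrays. Here 5.24% of all features were called by limma, 2.9% higher and 2.34% lower in the arrays numbered 2, and 0 of 10 members. The members' adjusted p-values by limma ran from 0.36 for Xbp1 to 0.95 for Hsp90b1, and 0 of 10 had an unadjusted p under 0.05, against 23% of all features. Among the members, 9 had a negative log2 difference (replicate 2 minus replicate 1), where 47% of all features did, and the median was -0.054 against 0.019 over all features. Without siScr replicate 1, 6 members were negative and 4 positive, with a median of -0.037. The negative members numbered 9 without siScr replicate 2, 8 without siErbB4 replicate 1 and 10 without siErbB4 replicate 2. The arrays numbered 2 lay below both arrays numbered 1 at 3 members, Calr, Pdia6 and Xbp1, beside 26.1% of all features, and the numbers did not overlap in either direction at 55.5% of all features. Differences whose size reached 0.58 on the log2 scale numbered 0 among the 10 members, beside 13.8% of all features, and 6.95% of all features were at -0.58 or lower.

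Xbp1 was the member with the lowest p here. The difference was -0.16 between the siScr arrays and -0.25 between the siErbB4 arrays, so both pairs ran the same way, and the fit gave -0.21 (SE 0.11, 95% interval -0.51 to 0.09). Calr gave -0.38 (SE 0.23), of which -0.67 was between the siScr arrays and -0.10 between the siErbB4 arrays. Pdia4 gave -0.40 (SE 0.32), with -0.80 between the siScr arrays and -0.0069 between the siErbB4 arrays. Sdf2l1 ran in opposite directions, at -0.31 and 0.11. Hspa5, Hsp90b1, Pdia6, Dnajb9, Herpud1 and Creld2 had differences between -0.065 and 0.021.

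Pdia4 was the 1 member called under any alternative run. Without siErbB4 replicate 1 its log2 difference was -0.86 with an adjusted limma p of 0.046, siScr replicate 1 then being the lone array numbered 1 and taken to vary like the others. Without siScr replicate 1 it was 0.05. In the arrays as a whole, the replicates numbered 1 sat at positions 3 and 4 of the slide and those numbered 2 at positions 1 and 2, so position and replicate number cannot be told apart. The 7 bright spike-in probes differed between the numbers by a median of 0.076 and at most 0.099 in size. Between siErbB4 and siScr they differed by a median of 0.10 and at most 0.32, all 7 being higher in siErbB4. Their median is thus a shift in 1 direction and not a measure of spread. Group differences under 0.10 in size were found at 7 of the 10 members, where the median size over all features was 0.13.

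**Figure D3:**
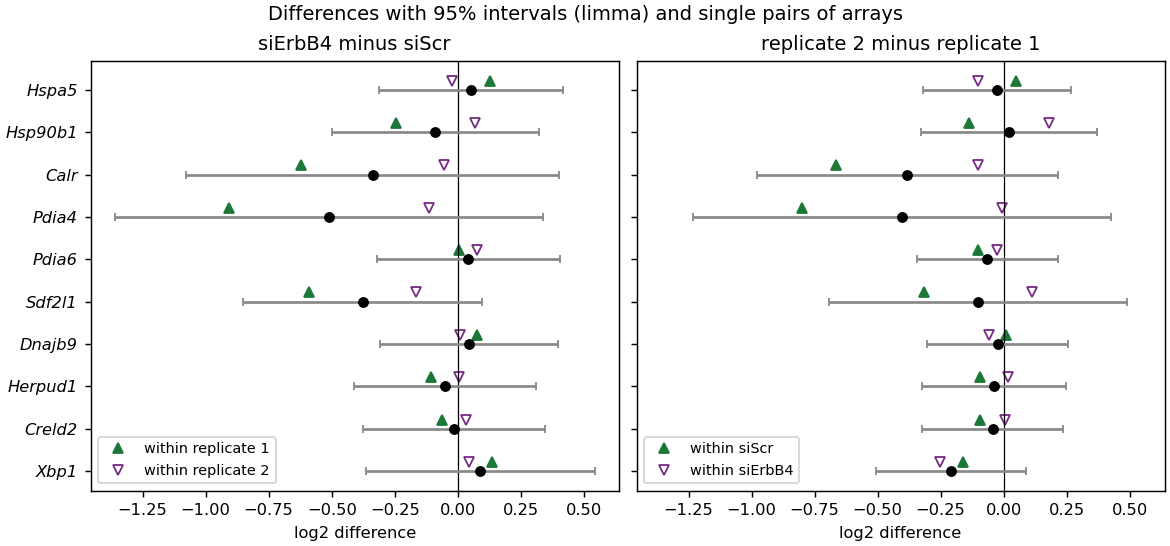
Log2 differences of the 10 members, siErbB4 minus siScr on the left and replicate 2 minus replicate 1 on the right, with black points and grey 95% intervals from limma and triangles for the single pairs of arrays. All 20 intervals span 0, and the filled triangles, which in both panels subtract siScr replicate 1 from another array, are far from 0 at Calr, Pdia4 and Sdf2l1.

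The other genes of the pathway were compared through 4 lists with 73 genes, all of them tested. Between siErbB4 and siScr 0 of the 73 were called by limma, 25 had a positive and 48 a negative log2 difference, and the groups did not overlap at 4 higher and 14 lower, beside 13.1% and 15.9% of all features. The majority turned round without siScr replicate 1, at 44 positive and 29 negative, and was near even without siErbB4 replicate 2, at 36 and 37. Between the replicate numbers 60 of the 73, or 82.2%, had a negative difference, and 54 to 62 had one with an array left out. limma called 1 of the 73, beside 5.24% of all features. The numbers did not overlap at 5 higher and 44 lower, beside 29.4% and 26.1% of all features. Leaving out arrays for the lists was chosen after seeing the data.

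Other folding factors of the endoplasmic reticulum had a median log2 difference of -0.09 between siErbB4 and siScr over 20 genes, 15 of them negative. The lowest p were those of Creld1, a relative of Creld2, at -0.46 (SE 0.19), the isomerase Pdia5 at -0.37 (SE 0.18) and P4hb, the main protein disulfide isomerase, at -0.31 (SE 0.17). Each of these 3 was highest on siScr replicate 1. Without that array the list's median was 0.023, with 8 of 20 negative, and with each other array left out it was -0.18, -0.18 and -0.041, the last without siErbB4 replicate 2. Between the replicate numbers the median was -0.16 with 18 of 20 negative, or -0.079 with 14 of 20 negative without siScr replicate 1 and -0.26 without siErbB4 replicate 1. The lowest p were those of Hyou1, an exchange factor of BiP, at -0.74 (SE 0.22), Pdia3, the partner of calreticulin and calnexin, at -0.35 (SE 0.10), and calnexin itself (Canx) at -0.26 (SE 0.10). Levels of Hyou1 were low, from -3.47 to -2.41 over the arrays, so its difference is less certain in size.

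Genes of endoplasmic reticulum-associated degradation, which work beside Herpud1, had a median of -0.026 between siErbB4 and siScr over 16 genes, with Os9 at -0.22 (SE 0.22), Derl3 at -0.44 (SE 0.44) and Erlec1 at 0.12 (SE 0.15). The sign of the list's median turned without siScr replicate 1 (0.029, with 12 of 16 positive), siScr replicate 2 (0.0078) and siErbB4 replicate 2 (0.044), and it was -0.076 without siErbB4 replicate 1. The median between the numbers was -0.11, and -0.12 to -0.092 with an array left out. Edem1, a lectin-like factor that routes glycoproteins to degradation, gave -0.43 (SE 0.14) and Syvn1, the ubiquitin ligase HRD1, gave -0.34 (SE 0.12). Derl3 gave 0.78 (SE 0.27), on the other side. Its levels were low, from -3.58 to -2.35 over the arrays, so its difference is less certain in size.

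Sensors and transcription factors of the response had a median of 0.01 between siErbB4 and siScr over 15 genes, with Atf6b at -0.27 (SE 0.19), Wfs1 at -0.18 (SE 0.13) and Ppp1r15a, the phosphatase subunit GADD34, at 0.25 (SE 0.19). That median was 0.12 without siScr replicate 1, with 11 of 15 positive, 0.092 without siErbB4 replicate 2, -0.15 without siScr replicate 2 and -0.0045 without siErbB4 replicate 1. The numbers differed by a median of -0.28, with 13 of 15 negative, or by -0.17 with siScr replicate 1 or siScr replicate 2 left out. Creb3l1, an ATF6-like factor also called OASIS that is known for driving collagen genes, was lower in the arrays numbered 2. It read 1.95 and 0.10 on the siScr arrays and 1.41 and -0.14 on the siErbB4 arrays. The log2 difference was -1.70 (SE 0.22) with an adjusted limma p of 0.031. The call ended without siScr replicate 1 (-1.43, adjusted limma p 0.054), without siScr replicate 2 (-1.82, 0.065) and without siErbB4 replicate 2 (-1.58, 0.078). Atf4, the effector of the PERK branch, gave -0.57 (SE 0.17) and Creb3 -0.36 (SE 0.13), and neither passed the test.

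Translocation and transport genes had a median of -0.11 between siErbB4 and siScr over 22 genes, 16 of them negative, with Kdelr3 at -0.50 (SE 0.23), Ssr4 at -0.28 (SE 0.14) and Sec11c at -0.19 (SE 0.13). Kdelr3 encodes a receptor that returns proteins such as BiP from the Golgi. The list's median was -0.017 without siScr replicate 1, with 13 of 22 negative, and -0.064 without siErbB4 replicate 2. Replicate 2 minus replicate 1 gave a median of -0.17 with 18 of 22 negative, led by Ssr1 at -0.39 (SE 0.11), the translocon gene Sec61b at -0.28 (SE 0.11) and Kdelr2 at -0.43 (SE 0.17).

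Genes that fold and crosslink procollagen had a median of -0.30 between siErbB4 and siScr, 11 of 12 being negative, with the prolyl hydroxylase P3h1 at -0.41 (SE 0.15), Plod1 at -0.33 (SE 0.14) and P4ha3 at -0.48 (SE 0.23). siScr replicate 1 was the highest array at 10 of the 12, and without it the median was -0.12. With siScr replicate 2 left out the median was -0.49. For replicate 2 minus replicate 1 it was -0.22, with P4ha2 at 0.60 (SE 0.17) and Fkbp10 at -0.43 (SE 0.14). Lox gave -1.24 (SE 0.42) at low levels, from -5.36 to -3.41 over the arrays, so its difference is less certain in size. The list's median turned to 0.017 without siScr replicate 1, with 5 of 12 negative. It was -0.44 without siErbB4 replicate 1 and -0.13 without siErbB4 replicate 2. None of these genes passed the test in either comparison, and 1.77% and 23% of all features had an unadjusted limma p under 0.05 in the same order.

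Chaperones of the cytosol and the mitochondria, which lie outside the endoplasmic reticulum, were compared for contrast. Over 14 tested genes the median was 0.036 between siErbB4 and siScr, with Trap1 at -0.28 (SE 0.21), Hsp90aa1 at 0.22 (SE 0.19) and Dnajb1 at 0.13 (SE 0.13). This median turned to -0.020 without siScr replicate 1, with 9 of 14 negative, and to -0.0056 without siErbB4 replicate 2, and was 0.092 without siScr replicate 2 and 0.065 without siErbB4 replicate 1. Between the replicate numbers it was 0.077 with 11 of 14 positive, and the lowest p were those of the mitochondrial Hspa9 at 0.33 (SE 0.14), the cytosolic Hspa8 at 0.24 (SE 0.11) and the inducible Hspa1a at 0.30 (SE 0.18). Hspa1a has a near-identical copy, Hspa1b, so its probe may read both.

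siScr replicate 1 was the highest of the 4 arrays at 6 of the 10 members, 14 of the 20 other folding factors and 16 of the 22 translocation and transport genes, where it was highest at 29.2% of all features. siErbB4 replicate 1 was the highest at the other 4 members. Among degradation genes siScr replicate 1 was highest at 7 of 16, by a median of 0.020, where the median of siErbB4 replicate 1 was 0.088. Among cytosolic and mitochondrial chaperones siScr replicate 1 was highest at 1 and lowest at 7 of 14. The members' median distance from the mean of the other 3 arrays was 0.084 on that array, against -0.019 over all features. Markers of fibroblasts and matrix and of endothelium were also high on that array. Of 17 listed, 17 were measured and 15 were well above background on all arrays, Fap on none, and siScr replicate 1 was the highest array at 14 of the 15 tested, by a median of 1.25. The summed level of the list, in multiples of the array's 75th percentile, was 96.0 and 35.9 on the siScr arrays and 74.4 and 33.2 on the siErbB4 arrays. Between the replicate numbers 13 of the 15 had a negative difference, with a median of -1.29, and 4 were called lower in the arrays numbered 2, namely Col1a1, Fn1, Postn and Pdgfra. With an array left out, 11 were called without siErbB4 replicate 1 and 0 without any of the others. Endothelial markers had siScr replicate 1 highest at 6 of 8 tested, by a median of 0.68, and 7 of 8 had a negative difference between the numbers, with a median of -0.64 and 0 called. In such bulk samples fewer cells of a type and less RNA per cell cannot be told apart, and the part of either cell type in the members' values was not tested.

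The other marker lists had these sums. The summed cardiomyocyte markers were 2009 and 2659 on the siScr arrays and 1958 and 2418 on the siErbB4 arrays, lower in both arrays numbered 1, and 3 of 15 were called higher in the arrays numbered 2, namely Tnni3, Ryr2 and Nppa. With an array left out 0 or 1 of the 15 was called. Endoderm and hepatic markers summed to 24.9 and 31.4 and to 25.7 and 32.2, with Apoa1 on no array well above background, and Afp was the 1 gene of 13 tested that was called higher. Pluripotency markers summed to 25.9 and 27.8 and to 40.8 and 30.9, highest on siErbB4 replicate 1. Endothelial markers summed to 4.05 and 4.78 and to 3.67 and 3.71, with Emcn on no array well above background, and most of that sum was the signal of Kdr. Blood and macrophage markers summed to 8.45 and 12.5 and to 7.43 and 11.1, and of 7 tested Lyz1 and Lyz2, whose near-identical messages a probe may not separate, were called higher in the arrays numbered 2. The other markers of that list did not pass the test, 4 of the 7 had a negative difference (Adgre1 -2.35, Fcer1g -1.74, Hbb-bh1 -0.62 and Itgam -0.15), and the median was -0.15. Adgre1 was not well above background on all 4 arrays, so its difference is less certain in size.

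**Figure D4:**
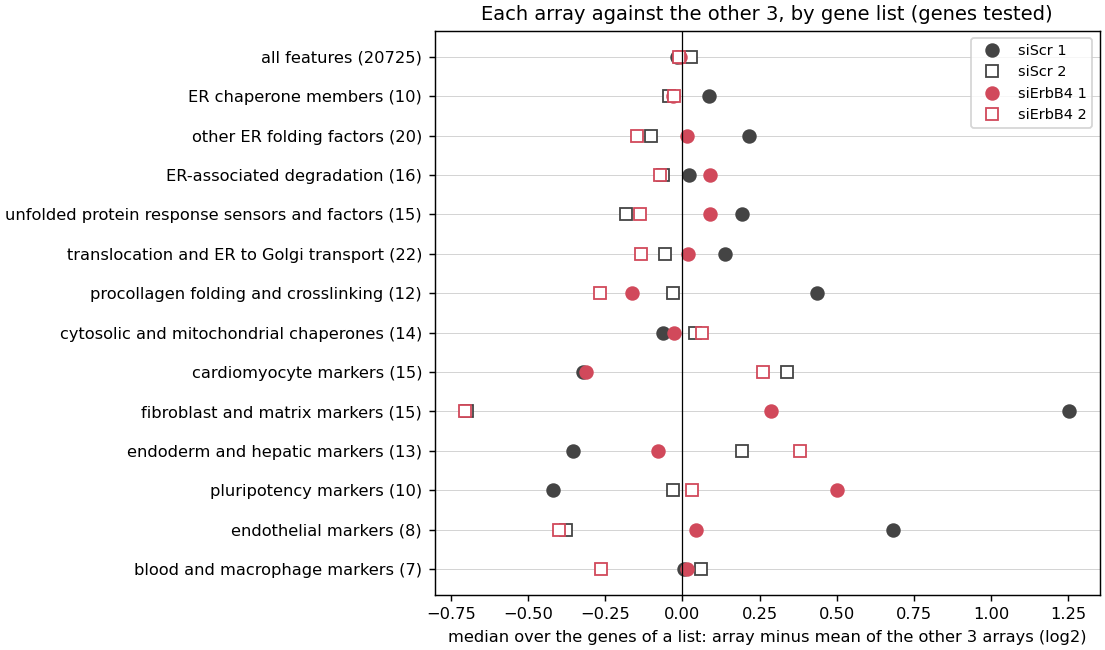
For each gene list, with the number of genes tested in parentheses, the median over its genes of 1 array minus the mean of the other 3 arrays (log2), with 1 point per array. siScr replicate 1 (filled grey) lies at 0.084 for the members, 0.22 for the other folding factors, 0.44 for the procollagen genes and 1.25 for the fibroblast and matrix markers.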

How the data were processed

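Per the labels' protocols, Cy3 copy RNA was made from 200 ng of total RNA. Feature Extraction 10.7.1.1 from Agilent read the arrays, per the file headers. The processed intensity deposited for each spot is background-subtracted and detrended within the array, per the file headers, and not scaled between arrays. The raw median intensities of spot and background and the flags were deposited beside it. The value table deposited by the authors holds log2 values, which differed from the scaled scanner values by at most 0.0033. Its column medians were -3.81, -3.83, -3.84 and -3.86, so genes were not centred, and scale and direction were settled by this match.

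Control spots (1377 of 44397) and outlier-flagged spots were left out, 0 spots were saturated, and spots of a probe were averaged as log2 minus the array's 75th percentile. Probes were named through unversioned RefSeq accessions (27508 of 39429). A probe was kept if, in 1 group or both, each array had it well above background, and the kept probe with the highest mean stood for a gene. limma 3.58.1 in R 4.3.3 (lmFit, eBayes, two-sided, Benjamini-Hochberg, threshold 0.05) was fitted to 20725 features, with 2 residual degrees of freedom, and tested on simulated data. The group fit left out the replicate number, and the replicate fit the transfection. The members and lists were chosen with earlier results of these data known, and the members were named in advance by symbol. The text names all members and, from each pathway or chaperone list, the 3 genes with the lowest p in each comparison. Markers were named where called or not above background. Kdr and the blood and macrophage markers with a negative difference between the replicate numbers were named besides. Alternatives covered background, scaling, filter, probe choice, the value table, blocks and each array left out.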

Additional observations from a re-analysis of the deposited data

How the results depend on the processing

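Between siErbB4 and siScr, limma called 0 members and 0 features under every alternative, with 177 to 1548 features at an unadjusted p under 0.05. That includes the replicate number as a block (0 called). In this balanced design the block cannot move the log2 differences, so the members' median of -0.033 was fixed in advance. The block lowered the SE of every member, as from 0.27 to 0.18 at Calr and from 0.31 to 0.22 at Pdia4. The lowest unadjusted limma p of a member was then 0.065, at Sdf2l1, with an adjusted limma p of 0.64. Whether the numbers pair the samples is not stated, and with 2 pairs it cannot be decided, although deviations of same-numbered arrays from their group means correlated at 0.68. The members' median was -0.069 with the mean of a gene's probes, and -0.080 to 0.012 with arrays left out. Single members near 0 changed sign: Creld2 to 0.012 with median scaling and 0.031 without siScr replicate 1, Pdia6 to -0.087 with the mean of its probes and -0.0083 without siScr replicate 2, and Hsp90b1 to 0.0011 and Xbp1 to -0.038 without siErbB4 replicate 1.

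Between the replicate numbers, limma called 1085 features, 1873 with normexp, 1521 with the transfection as a block and 0 without the filter on dim probes (4649 at an unadjusted p under 0.05). With arrays left out 0 to 1541 were called: 0 without siScr replicate 1 (5279 unadjusted), 0 without siScr replicate 2 (2685 unadjusted), 73 without siErbB4 replicate 2 and 1541 without siErbB4 replicate 1. The members called were 0 to 1, and their median was -0.097 to -0.037 with arrays left out and -0.11 with quantile normalization. Signs changed for Herpud1 (0.0075 with normexp, 0.015 without siScr replicate 1), Dnajb9 (0.046 with the mean of its probes, 0.015 without siErbB4 replicate 1), Hspa5 (0.038 without siErbB4 replicate 1), and Pdia4 (0.050) and Sdf2l1 (0.19) without siScr replicate 1. For Hsp90b1 they changed with quantile normalization (-0.043), without siErbB4 replicate 1 (-0.10) and without siErbB4 replicate 2 (-0.014). Over the arrays left out, these members ranged as follows between siErbB4 and siScr: Creld2 from -0.062 to 0.031, Hsp90b1 from -0.18 to 0.0011, Pdia6 from -0.0083 to 0.093 and Xbp1 from -0.038 to 0.22. Between the numbers Dnajb9 ranged from -0.063 to 0.015, Herpud1 from -0.091 to 0.015, Hsp90b1 from -0.10 to 0.14, Hspa5 from -0.091 to 0.038, Pdia4 from -0.86 to 0.050 and Sdf2l1 from -0.40 to 0.19. The cause was not tested. In the other 223 settings of single members the sign and the side of the threshold held, and in 1 a call was gained. Many of these settings could not change the sign. The blocks and both filter settings left each member's difference as it was. So did the mean of a gene's probes at members with 1 probe, and the value table holds nearly the same values. The count of 223 is therefore not a count of independent checks.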
